A study of Homo sapiens with 24 samples.

Results

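Cytosolic ribosomal protein genes were followed across 6 human liver cancer lines in which the RNA-binding protein SFPQ was knocked down and TGF-beta was added or left out. They were defined by symbol alone: RPL or RPS with a number and an optional A or X, the stalk genes RPLP0, RPLP1 and RPLP2, and RPSA. The rule found 76 rows of 23284 in the expression table, 30 of the small subunit and 46 of the large subunit. It used no expression value, but the set was chosen with earlier results of these data known. FAU, which also encodes a ribosomal protein, falls outside the rule. The lines were HLE, SK-HEP1, HepG2, Hep3b, Huh1 and Huh7, all labelled as hepatocellular carcinoma (HCC) and grown in the same medium with serum. Each line gave 1 library to each of 4 groups: control siRNA (siCTL, genotype labelled wt), control siRNA with TGF-beta, siRNA against SFPQ (siSFPQ, labelled SFPQ KD), and siRNA against SFPQ with TGF-beta. TGF-beta was given at 2 ng/ml for 24 h, so the 24 libraries differ by line, siRNA and cytokine. The line is therefore the replicate (n = 6 per group). A p-value here sets the mean change within lines against how much that change varied from line to line. The sources used here do not give the siRNA sequences or the length of the knockdown.

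Each ribosome holds 1 copy of nearly every one of these proteins. Most of them fold onto ribosomal RNA in the nucleolus before the subunits are exported. The mRNAs of these proteins are short, very abundant and long-lived, and most begin with a C followed by an unbroken run of pyrimidines. That start is the terminal oligopyrimidine (TOP) motif. LARP1, a cap-binding protein controlled by the kinase mTOR, binds that motif and sets how much of the mRNA is translated or stored. In liver and liver tumours ribosome production follows growth, and TGF-beta slows the growth of many epithelial cells.

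The motif was read from the annotated starts in RefSeq's promoter table (GRCh38.p14), since it is the sequence feature that most members share. Of the 76 members, 62 matched by symbol and 14 had no entry. A C at the annotated start followed by at least 4 pyrimidines (read on the gene's own strand only) was present in 46 of the 62, or 74.2%, against 4.98% of 27243 other genes. With the start allowed to move by up to 5 bases in either direction, 53 of 62 (85.5%) held it, against 25.1% of the other genes. The run from the start was 5 to 19 bases long, with a median of 8. The following 30-base stretches show 10 bases before the annotated start and 20 from it, 5′ to 3′, with the pyrimidine run from the start in capitals. They are some of the members named below that have the motif at the start. Others with it, such as RPL36 and RPL7A, are not printed. RPL3, RPL4, RPL5, RPL10A, RPL17, RPL23A, RPL27, RPL37, RPS15A, RPS20 and RPS26, which are also named below, are not among the 46. A member outside the 46 either had no entry or had an entry without this motif at the start.
RPS6 (chr9:19380217-19380246, minus strand): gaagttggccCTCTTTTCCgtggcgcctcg
RPS21 (chr20:62387093-62387122, plus strand): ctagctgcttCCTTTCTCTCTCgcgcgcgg
RPL41 (chr12:56116623-56116652, plus strand): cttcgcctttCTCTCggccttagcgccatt
RPL11 (chr1:23691796-23691825, plus strand): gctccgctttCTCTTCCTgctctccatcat
RPS18 (chr6:33272065-33272094, plus strand): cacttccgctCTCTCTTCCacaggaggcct
RPLP1 (chr15:69452808-69452837, plus strand): ggcgcgagagCCCCTTTCCTCagctgccgc
RPL39 (chrX:119791611-119791640, minus strand): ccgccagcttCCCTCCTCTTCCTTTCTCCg
RPL36A (chrX:101391001-101391030, plus strand): ctcgcggtttCTTTCTTTCCgcgccgatag
The run is 5 bases long in RPL41, whose level was the highest of all members, 9 in RPS6 and 19 in RPL39. A match is a description of these letters and not a measured site.

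The values are FPKM, that is, fragments adjusted for transcript length and for the number of fragments mapped. Relative depth, estimated from the size of 1 fragment in low genes, ranged from 0.351 to 1.74 between libraries, with the TGF-beta-treated siSFPQ library of Huh7 the shallowest. Every member but RPL21 was at 75.7 FPKM or more in every library. The 4 libraries labelled Hep3b had few hepatocyte transcripts, against their label: ALB was at 0.514 to 0.951 FPKM there, 6 of 11 hepatocyte markers were under 1 FPKM in every library of the line, none was over 10 in every one, and their summed level was 14.5 to 24.9 FPKM. The same sum was 28.4 to 119 FPKM in HLE, 21.0 to 27.5 in SK-HEP1, 1112 to 1813 in Huh1, 13473 to 20411 in Huh7 and 12702 to 16366 in HepG2. Values without Hep3b are given for the main calls. Of 77 changes of named genes over the comparisons, 57 stayed on their side of the threshold without Hep3b, 20 lost their call and none turned direction. The levels, shares and line orders below include Hep3b. Endothelial markers summed to at most 1.62 FPKM in any line, including SK-HEP1, a line often described as endothelial in origin. Stellate and fibroblast markers summed to between 2.31 and 255 FPKM. Of 4 immune markers, only the lysosomal gene CD68 was over 10 FPKM in every library of any line. Their part in the results was not tested.

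Together the 76 genes made up between 15.0% and 24.1% of the summed FPKM of all rows kept. With the short RNA rows counted too, they made up between 6.94% and 13.3%. In siCTL libraries 55 of them averaged at least 1000 FPKM, 8 averaged under 500, and 61 stood among the 100 highest rows. RPL41, which encodes the smallest and most basic of the proteins, was highest: in the siCTL libraries it was at 2859.9, 4992 and 7191 FPKM (lowest, median and highest line). The stalk proteins recruit the translation factors. RPLP1 was at 3696 ± 892 FPKM in siCTL libraries (mean ± SD, n = 6), RPLP0 at 2074 ± 523 and RPLP2 at 1987 ± 455. RPS27, a zinc-finger protein of the small subunit, was at 3555 ± 905 FPKM. RPSA, the small-subunit protein also known as the laminin receptor, was at 699 ± 177, below most members. RPS27A, made as a fusion with ubiquitin, was at 1095 ± 105 FPKM, and its SD over lines was small. RPL5 and RPL11, which with a small ribosomal RNA can bind the ubiquitin ligase MDM2, were at 1144 ± 243 and 1286 ± 398 FPKM. RPL39, a protein of the nascent chain exit tunnel, was at 1836 ± 509 FPKM. RPL22, dispensable in many cells, was at 235 ± 52.5. The lowest rows besides RPL21 were RPL27A at 146 ± 28.7 and RPS23, a decoding-centre protein, at 223 ± 53.5 FPKM.

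Across lines the SD over the 6 siCTL libraries had a median of 0.37 on the log2 scale over members, against 0.60 over 747 other genes of at least 100 FPKM. That comparison of medians is a description and was not tested. HepG2 had the lowest level for 48 of 76 members, Huh7 the highest for 28 and Hep3b for 20. With libraries rescaled to equal sums, or with GC and length trends removed, HepG2 was lowest for 31.

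Several members broke from this order between lines, and all but RPS6 kept to their own pattern in all 4 groups of a line. RPS26, a small-subunit protein at the mRNA exit, was at 76.4 to 102 FPKM in HepG2 and between 229 and 622 FPKM in the other lines, a gap of -2.20 on the log2 scale from the mean of the other siCTL libraries. RPS15A went the other way: it was at 2526 to 3329 FPKM in HepG2, the most abundant member of the siCTL library there, and at 1027 to 2468 FPKM elsewhere. RPS6, the phosphorylated protein of the small subunit, was lowest in Huh1 among siCTL libraries at 680.3 FPKM, with the other lines between 1117 and 2113. RPL37 was at 856 to 959 FPKM in Hep3b and 798 to 898 in Huh7, above the 260 to 535 FPKM of the other lines. RPL36A was highest in Hep3b at 886 to 992 FPKM and lowest in HepG2 at 222 to 312. These members, with RPL21, have the largest SD over lines and were named for that, so the gaps are descriptions without a test. Under the other scalings the RPS26 gap in HepG2 was -2.14 to -2.01.

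**Figure D1:**
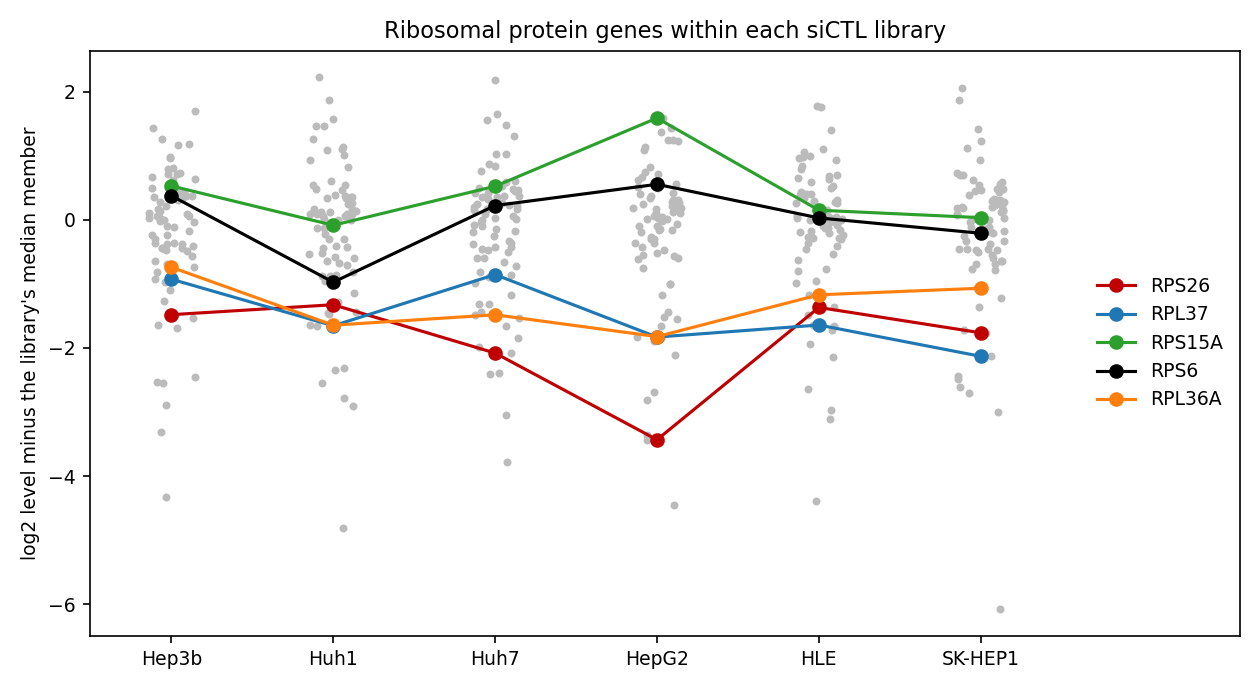
Level of each member in the siCTL library of each line, as the difference in log2(FPKM + 1) from the median member of that library; grey points are the 76 members, and coloured lines join RPS26, RPL37, RPS15A, RPS6 and RPL36A. RPS26 sits at -3.43 in HepG2 and between -2.08 and -1.33 in the other lines, while RPS15A is at 1.59 in HepG2 and between -0.09 and 0.53 elsewhere.

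Copies in the genome bear on single members. The table holds 28 rows of numbered ribosomal protein pseudogenes, and 2 of them averaged over 100 FPKM in siCTL libraries. RPL21P28 was at 734 to 2262 FPKM while the RPL21 row was at 0.017 to 191, so the parent row held at most 8.87% of the pair in any library. RPL13AP5 was at 1476 to 3218 FPKM, and RPL13A held 12.3% to 23.0% of that pair. The sources used here do not say how fragments that match both rows were divided, so RPL21 and RPL13A are uncertain as single genes, a remark made after their values were seen. Read-through rows were low beside their members: RPL36A-HNRNPH2 was at 20.3 to 75.03 FPKM, RPL17-C18ORF32 at 0 to 2.85 and RPS10-NUDT3 at 0 to 0.416. Whether counting used strand is not stated either.

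The first comparison asks what SFPQ knockdown did to these genes without TGF-beta. SFPQ itself, a nuclear protein of paraspeckles, was at 90.4, 176 and 247 FPKM in siCTL libraries and 23.5, 38.5 and 51.4 in siSFPQ libraries (lowest, median and highest line). It fell in 6 of 6 lines (log2 change -2.10, SE 0.26, adjusted p = 0.00287; limma, Benjamini-Hochberg over all genes), to between 9.49% in HLE and 45.2% in HepG2 of the line's control.

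RPS6 was the 1 member of 76 that passed the threshold, and it fell in every line. In siCTL libraries it was at 680.3, 1503 and 2113 FPKM and in siSFPQ libraries at 199.5, 718 and 1309. The groups overlapped, because Hep3b kept more RPS6 after knockdown than Huh1 and SK-HEP1 had before it, but each line fell against its own control. Hep3b kept 61.9% of its control level, Huh1 61.1%, HepG2 57.5%, HLE 55.1%, Huh7 36.7% and SK-HEP1 17.9%. The mean change was a fall (log2 change -1.16, SE 0.21, adjusted p = 0.00852; limma), and 102 of the 12010 genes tested fell further. Within its own library RPS6 dropped from the 46th to the 74th most abundant of the 76 members in SK-HEP1, from the 30th to the 64th in Huh7 and from the 22nd to the 49th in Hep3b. The level of the median member was 1383 ± 193 FPKM in siCTL and 1427 ± 281 in siSFPQ libraries (mean ± SD, n = 6). Without Hep3b the change in RPS6 was -1.26 (adjusted p = 0.0128), and without SK-HEP1, the line with the steepest fall, it was -0.90 (adjusted p = 0.0064; limma). In bulk RNA, fewer cells of a kind and less RNA per cell cannot be told apart.

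**Figure D2:**
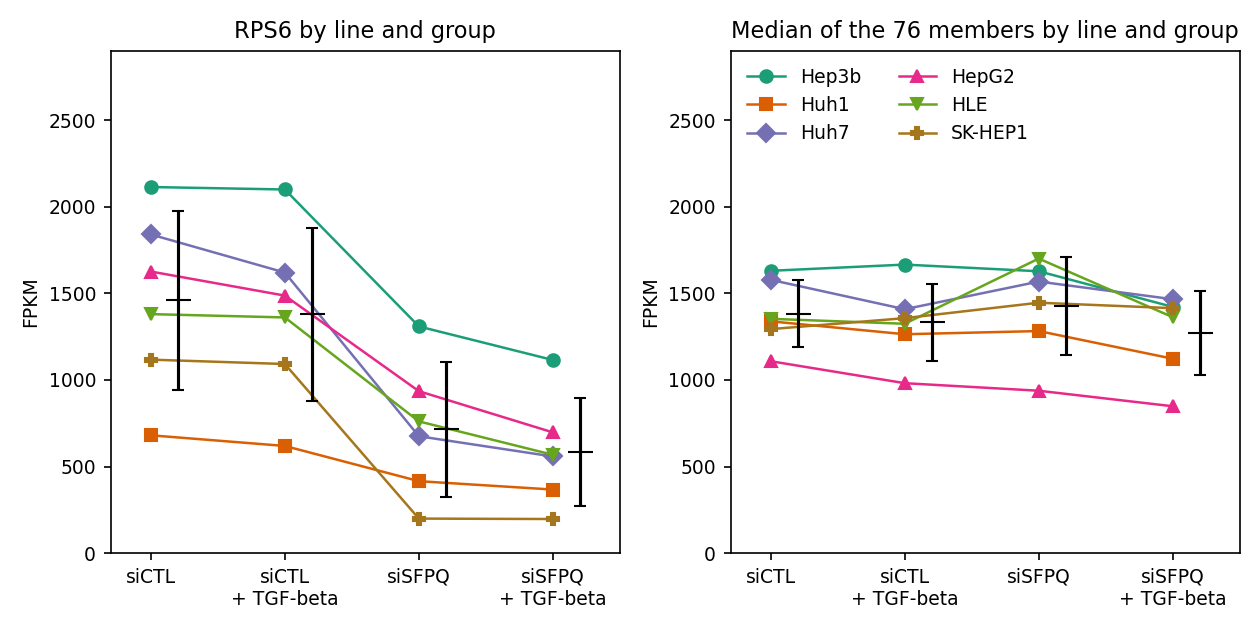
FPKM of RPS6 (left) and of the median of the 76 members (right) in each group; coloured lines join the 4 libraries of a line, and black bars give the mean and SD over 6 lines. RPS6 averages 1459 in siCTL, 1379 in siCTL with TGF-beta, 716 in siSFPQ and 584 in siSFPQ with TGF-beta, while the median member averages 1383, 1333, 1427 and 1272.

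The other 75 members did not pass the test without TGF-beta, where 21.7% of all genes tested did, 15.0% lower and 6.69% higher. At an unadjusted p under 0.05, 6 members were lower and 2 higher. Of all 12010 genes tested, 3020 were lower and 1465 higher at that level. The median change over members was 0.05 on the log2 scale, against -0.07 over all genes, and 53 of 76 were positive. Under median ratio scaling the 2 medians were 0.15 and 0.01, and without HLE that of the members was -0.004. RPL17 gave log2 change -0.38, SE 0.13, adjusted p = 0.0549, lower in 6 of 6 lines but short of the threshold. On the positive side were RPL12 (log2 change 0.24, SE 0.09, adjusted p = 0.072) and RPL39 (log2 change 0.21, SE 0.08, adjusted p = 0.0936), each lower in HepG2 alone. With every library set to the same sum, 8 members passed, 6 lower and 2 higher. Without HepG2 4 passed, 3 of them higher, and without HLE 4 passed, all lower. Of all genes called, 69.2% were lower, a share that became 52.7% under median ratio scaling and 49.4% with a length trend removed.

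With TGF-beta present, 11 of 76 members fell after SFPQ knockdown and none rose, against 30.3% of all genes tested, 21.8% lower and 8.47% higher. The share of members that fell, 14.5%, was below the 21.8% background of lower calls. They were RPS6, RPL17, RPL41, RPS21, RPL23A, RPS26, RPL11, RPS20, RPL36, RPL4 and RPL7A. The median over all members was -0.04, against -0.09 over all genes, and turned to 0.08 when the median ratio of all genes was set equal between libraries, a scaling that moves the median of all genes from -0.09 to 0.01. Of all genes called, 72.0% were lower, a share that became 46.4% with GC and length trends removed.

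SFPQ fell here too (log2 change -1.97, SE 0.25, adjusted p = 0.00241; limma). RPS6 again had the largest fall of the members called. It went from 619, 1424 and 2099 FPKM in the treated siCTL libraries to 197, 563 and 1115 in the treated siSFPQ libraries. Every line fell, to between 18.05% and 59.3% of its control (log2 change -1.34, SE 0.19, adjusted p = 0.00325; limma). RPL17, which lines the exit tunnel, was at 845, 1012 and 1724 FPKM before and 479, 694 and 1270.1 after knockdown (log2 change -0.53, SE 0.11, adjusted p = 0.00915). SK-HEP1 fell by 1.17 on the log2 scale and the other lines by 0.34 to 0.44. RPL41 went from 2705, 5173 and 6583 to 2182, 3927 and 6207 FPKM (log2 change -0.44, SE 0.11, adjusted p = 0.0163). Its fall was also steepest in SK-HEP1, at -1.04, and shallowest in Huh7, at -0.08. RPS21 moved more evenly, from 1524, 1863 and 2908 to 1204, 1458 and 2132 FPKM (log2 change -0.43, SE 0.06, adjusted p = 0.00325), with line changes from -0.67 in Hep3b to -0.27 in HepG2. The groups of all 76 members overlapped between lines in this comparison, as in the others, and 0.774% of all genes tested here had groups that did not (0.649% without TGF-beta).

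The remaining calls were smaller. RPL23A changed by -0.33, RPS26 by -0.32, RPS20 by -0.29, RPL36 by -0.23, RPL4 by -0.22 and RPL7A by -0.18 on the log2 scale, each lower in 6 of 6 lines. RPL11, of the MDM2-binding pair, was at 876, 1138 and 1748 and then 692, 882 and 1414 FPKM (log2 change -0.31, SE 0.08, adjusted p = 0.0215), lower in 5 lines and at 0.01 in HLE. Its partner RPL5 had a change of -0.04 (adjusted p = 0.643). The stalk genes did not pass, with changes of 0.09 for RPLP0, 0.09 for RPLP1 and -0.06 for RPLP2. RPSA (-0.04), RPS27A (-0.07), RPS27 (-0.03), RPL22 (-0.10) and RPL39 (0.10) did not pass either. RPL21 had a change of -1.29 with an SE of 0.87, the widest error of any member. The sum of RPL21 and RPL21P28, mostly the pseudogene row, changed by -0.27 (SD 0.12 over lines). That sum was lower in 6 of 6 lines and was not tested. Under median ratio scaling only RPS6, RPL17, RPL41 and RPS21 passed, and these 4 passed under every alternative except the fit without the line as a block. Without Hep3b, 9 members fell.

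**Figure D3:**
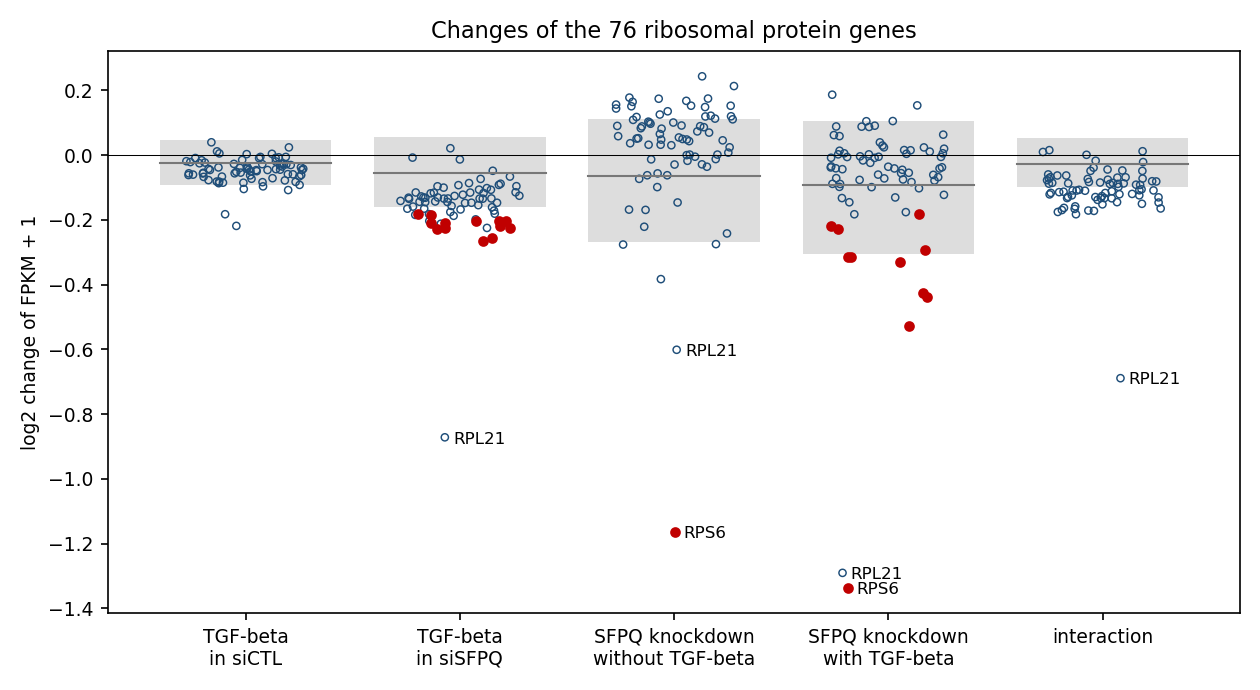
Log2 change of FPKM + 1 for each of the 76 members in the 5 comparisons (points; filled red points passed at adjusted p under 0.05), with the middle 50% of all genes tested as a grey box and their median as a line. RPS6 is at -1.16 and -1.34 in the knockdown comparisons, and 75 of 76 members lie below 0 for TGF-beta in siSFPQ cells; RPL21, whose row is unreliable, is the other low point.

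TGF-beta in siCTL cells moved none of the 76 members past the threshold, against 0.0987% of all genes tested (12 genes; limma), 0.0329% lower and 0.0658% higher. In 6 of 6 lines 5 members were lower, against 6.09% of all genes, and the groups of all 76 overlapped, where 0.00822% of all genes had groups that did not. At an unadjusted p under 0.05, 7 members were lower and none higher. Of all 12163 genes tested, 1150 were lower and 758 higher at that level. The change was negative for 70 of 76 members, against 60.1% of all genes, and the median was -0.05 over members and -0.03 over all genes. Lines differed: the median member changed by -0.15 in Huh7, -0.11 in HepG2, -0.07 in Huh1 and -0.01 in HLE. It changed by 0.02 in Hep3b and by 0.04 in SK-HEP1. The smallest p-values were those of RPL13A (log2 change -0.22, SE 0.04, adjusted p = 0.0925), RPL3, which lies near the peptidyl transferase centre (log2 change -0.10, SE 0.03, adjusted p = 0.14), RPS6 (log2 change -0.09, SE 0.03, adjusted p = 0.291), RPL10A (log2 change -0.09, SE 0.04, adjusted p = 0.291) and RPS18 (log2 change -0.08, SE 0.03, adjusted p = 0.304). These are the 5 members lower in every line, and RPL13A is 1 of the 2 members with an abundant pseudogene row.

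In siSFPQ cells TGF-beta lowered 13 of 76 members and raised none, where 5.16% of all genes tested passed, 2.90% lower and 2.26% higher. The falls were slight. RPS18, of the small-subunit head, was at 2630.5, 3837 and 6081 FPKM without and 2205, 3329 and 4855 with TGF-beta (log2 change -0.23, SE 0.04, adjusted p = 0.0283). RPL3 went from 818, 1478 and 2078 to 689.9, 1259.8 and 1773 FPKM (log2 change -0.23, SE 0.04, adjusted p = 0.0316). RPS26 went from 93.9, 405 and 622 to 76.4, 342 and 457 FPKM (log2 change -0.27, SE 0.05, adjusted p = 0.0359). Each was lower in 6 of 6 lines, although the lines themselves spread far wider than the change. RPS6 (-0.26), RPL10A (-0.23), RPL17 (-0.22), RPL27 (-0.21), RPL7A (-0.21), RPL12 (-0.20), RPL29 (-0.20), RPL11 (-0.20) and RPL41 (-0.18) were among the others that fell, with adjusted p-values up to 0.0494 for those named.

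The small change was spread over nearly all members. The change was negative for 75 of 76 (70 of 76 in siCTL cells), against 63.9% of all genes tested, and 40 members were lower in 6 of 6 lines, against 13.1% of all genes. The median was -0.14 over members and -0.06 over all genes. It was -0.13 over the small subunit and -0.15 over the large subunit. RPL5 (-0.13, adjusted p = 0.0842), RPLP0 (-0.13, adjusted p = 0.0918) and RPSA (-0.13, adjusted p = 0.104) were lower in 6 of 6 lines without passing. RPS27 (-0.01, lower in 3 lines) and RPL27A (0.02, lower in 3 lines) lay at the upper end. By line, the median member changed by -0.30 in HLE, -0.19 in Huh1, -0.18 in Hep3b, -0.12 in HepG2, -0.06 in Huh7 and -0.03 in SK-HEP1. The count moved with the lines entered: 6 members passed without SK-HEP1, 1 without Hep3b, and none without Huh1, Huh7, HepG2 or HLE. They also depended on scaling, since 6 passed under median ratio scaling, which also moved the share of lower genes among all genes called from 56.3% to 33.7%.

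Of the summed FPKM of all rows kept, which leaves out short RNAs, members took 20.5% ± 2.15 in siCTL libraries and 20.04% ± 2.096 with TGF-beta. Their share was 21.0% ± 3.28 in siSFPQ libraries and 19.7% ± 3.06 in siSFPQ libraries with TGF-beta (mean ± SD, n = 6). Within lines TGF-beta changed the share by -1.30 percentage points in siSFPQ cells (SD 0.83, lower in 6 of 6 lines) and by -0.44 in siCTL cells (SD 0.67, lower in 4 of 6). Knockdown without TGF-beta changed it by 0.48 points with an SD of 1.67, from -1.93 to 3.07 between lines, which is within the spread of the lines.

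**Figure D4:**
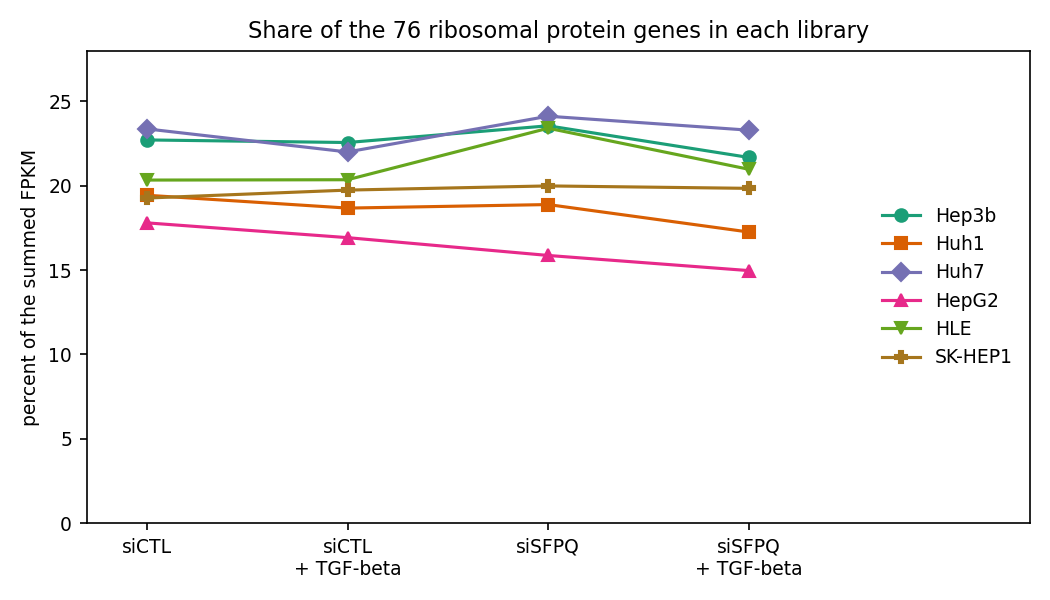
Percent of the summed FPKM of all rows kept that the 76 members made up in each of the 24 libraries; lines join the 4 libraries of a cell line. The share runs from 15.0% to 24.1%, and in each of the 6 lines the siSFPQ library with TGF-beta lies below the siSFPQ library without it.

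The comparisons share libraries, so their values are set side by side and not correlated: the TGF-beta-treated siSFPQ libraries enter both the second TGF-beta comparison and the second knockdown comparison. The interaction, fitted to all 24 libraries, tested if knockdown altered the response to TGF-beta. None of 76 members passed, against 0.252% of all genes tested (34 genes; limma), 0.0296% lower and 0.222% higher. At an unadjusted p under 0.05, 23 members were lower and none higher. Of all 13493 genes tested, 981 were lower and 707 higher at that level. The median was -0.11 over members and -0.03 over all genes. The difference was negative in 6 of 6 lines for 8 members, against 4.31% of all genes. The smallest p-values were those of RPS10 (log2 change -0.18, SE 0.06, adjusted p = 0.273), RPS18 (-0.15, adjusted p = 0.293), RPL12 (-0.14, adjusted p = 0.305), RPL36 (-0.17, adjusted p = 0.305) and RPL27 (-0.16, adjusted p = 0.305). For RPS6 the interaction was -0.17 (adjusted p = 0.322). A larger TGF-beta effect in siSFPQ cells was thus not shown for any single member.

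Genes around the ribosomal proteins were read from gene lists by role. Among 6 tested paralogs, of 8 in the table, RPL36AL fell and RPL22L1 rose after knockdown without TGF-beta. Of all genes tested there, 15.0% fell and 6.69% rose. RPL36AL, a nearly identical copy of RPL36A made from another gene, was at 143, 386 and 572 FPKM in siCTL and 93.9, 234 and 445 in siSFPQ libraries (log2 change -0.69, SE 0.12, adjusted p = 0.00715), lower in 6 of 6 lines. RPL36A itself changed by -0.07 (adjusted p = 0.557), and fragments that fit both rows may have been split between them. RPL22L1, which can stand in for RPL22, was at 5.23, 6.63 and 29.4 and 6.09, 9.36 and 47.5 FPKM (log2 change 0.41, SE 0.12, adjusted p = 0.0339), and its highest level in either group was in HLE. RPL22 changed by -0.01. The RPL22L1 call was lost under 8 of 17 alternatives. RPL39L, a paralog known from testis and tumours, was listed at 0 in the siCTL library of HepG2 and at 27.9 to 50.1 FPKM in the other lines; its change of -0.65 did not pass (adjusted p = 0.104). With TGF-beta, RPL36AL (-0.77) and RPL7L1 (-0.26) fell after knockdown, where 21.8% of all genes fell. In siSFPQ cells TGF-beta lowered RPL22L1 (-0.45), where 2.90% of all genes fell.

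Other genes with known TOP mRNAs encode translation factors and their helpers, and 20 were in the table. After knockdown without TGF-beta 4 rose and 1 fell, where 6.69% of all genes rose and 15.0% fell. Their median was 0.12, against -0.07 over all genes. The fall was in EIF4B, an initiation factor that helps unwind mRNA, from 160.2, 209.6 and 318 to 45.6, 96.7 and 136 FPKM (log2 change -1.25, SE 0.11, adjusted p = 0.00114). The rises were in EIF3F (0.56), the elongation factor EEF2 (0.41), HNRNPA1 (0.35) and NAP1L1 (0.26). With TGF-beta the same 5 genes passed in the same directions, with EIF4B at -1.20. Without Hep3b EIF4B was at -1.26 without TGF-beta (adjusted p = 0.00667; limma). FAU passed in neither. TGF-beta in siSFPQ cells lowered 4 of the 20, where 2.90% of all genes fell: EEF1A1 (-0.21), EEF2 (-0.19), EEF1G (-0.17) and NPM1 (-0.23), sizes close to those of the members.

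Of 17 regulators of ribosomal protein mRNAs, 2 rose and 4 fell after knockdown without TGF-beta, where 6.69% of all genes rose and 15.0% fell. LARP1, the TOP-binding protein, was chosen after its values were seen. It was at 53.3, 84.3 and 95.3 FPKM in siCTL and 82.6, 102 and 132 in siSFPQ libraries (log2 change 0.38, SE 0.08, adjusted p = 0.0136), higher in 6 of 6 lines. MYC, a transcription factor that drives ribosome production, rose by 0.63 and was likewise chosen after its value was seen. CNBP, a zinc-finger protein that binds TOP mRNAs, went from 71.7, 97.1 and 133 to 25.3, 59.9 and 73.0 FPKM (log2 change -0.80, SE 0.14, adjusted p = 0.00777). LARP4, a binder of poly(A) tails, changed by -0.60, the translation repressor EIF4EBP2 by -0.56 and the mTOR partner RPTOR by -0.38. With TGF-beta 2 of the 17 rose and 6 fell, where 8.47% of all genes rose and 21.8% fell. Without Hep3b the change of CNBP without TGF-beta was -0.82 (adjusted p = 0.0161; limma).

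**Figure D5:**
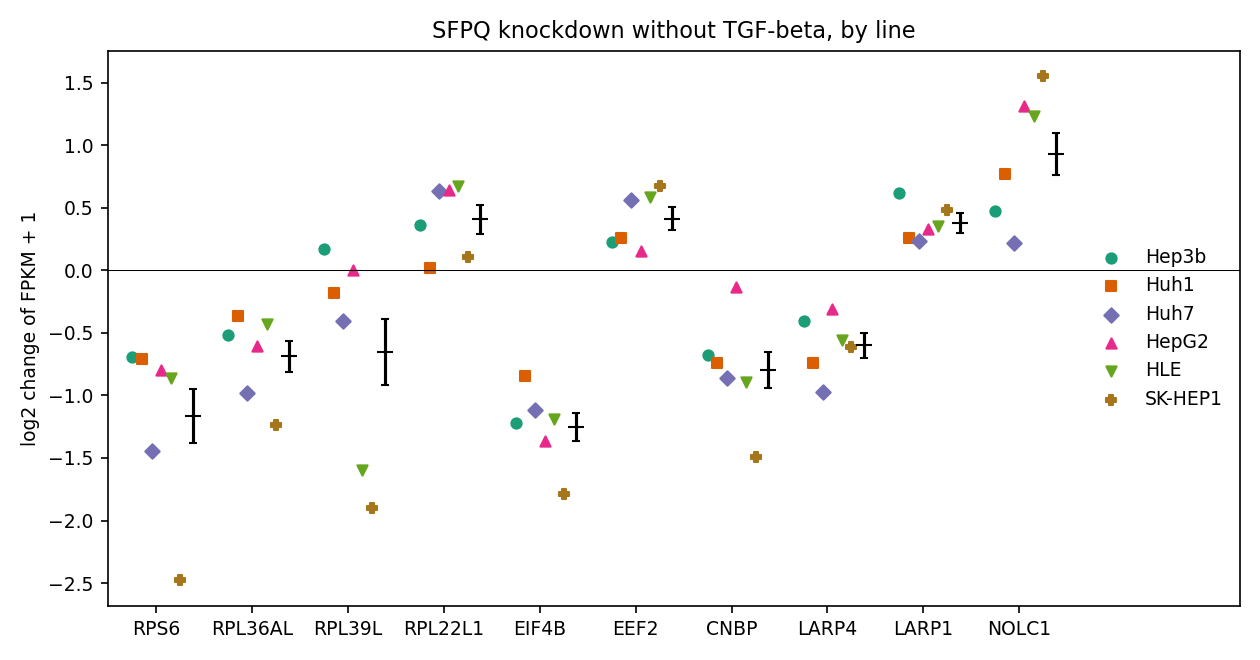
Log2 change of FPKM + 1 in each line after SFPQ knockdown without TGF-beta, for RPS6, 3 paralogs, 2 TOP genes, 3 regulators and the assembly factor NOLC1; coloured symbols are lines, and black bars give the fitted change with its SE. EIF4B lies below 0 in every line with a change of -1.25, and RPL39L ranges from 0.17 in Hep3b to -1.90 in SK-HEP1.

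Of 45 factors that assemble ribosomes 3 rose and 3 fell without TGF-beta, shares no higher than those of all genes (6.69% higher, 15.0% lower). NOLC1, a nucleolar scaffold, went from 19.8, 35.3 and 64.7 to 26.8, 78.4 and 109 FPKM (log2 change 0.93, SE 0.17, adjusted p = 0.00787), the export factor NMD3 changed by 0.42 and the exportin XPO1 by -0.38. With TGF-beta 3 rose and 12 fell (all genes 8.47% and 21.8%), GAR1 (-0.52) among them, and the median of the 45 was -0.13, which became -0.02 under median ratio scaling. Of 15 RNA polymerase I genes POLR1B rose (0.43) and the termination factor TTF1 fell (-0.42) without TGF-beta, and with it TTF1 alone fell. Of 6 ribosomal protein chaperones TSR2, the escort of RPS26, fell in both (-0.36 and -0.41). MDM2 rose without TGF-beta (0.26), a call that was lost under 9 of 17 alternatives. TGF-beta in siSFPQ cells lowered 1 of the 45 assembly factors (RPF2), where 2.90% of all genes fell. It also lowered 1 of the 15 RNA polymerase I genes (POLR1B) and 1 of the 6 chaperones (PDCD2L).

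Mitochondrial ribosomal proteins serve the organelle's own ribosome, and they also number 76 in the table. After knockdown 17 fell and 1 rose without TGF-beta, and 37 fell and none rose with it, where 1 and 11 cytosolic members fell. Of all genes tested 15.0% fell and 6.69% rose without TGF-beta, and 21.8% fell with it. Their median changes were -0.16 and -0.23, against 0.05 and -0.04 for the cytosolic members and -0.07 and -0.09 for all genes, and the difference between the 2 lists was not tested. MRPL14 (-1.34), MRPL42 (-1.07) and MRPL1 (-0.84) had the smallest p-values without TGF-beta. In siSFPQ cells TGF-beta lowered 9 of these 76, where 2.90% of all genes fell.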

How the data were processed

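RNA was measured by poly(A) sequencing in 24 libraries, 1 per line and group. The submitters' processing notes name TopHat2 2.1.1, Cufflinks 2.2.1 and hg19 (GRCh37); the sources used here do not state the annotation or settings. The name of the deposited table says raw counts, but its values are FPKM, as the low values show, so limma was used in place of a count test. Of 23284 rows, 1627 of short RNAs were left out, 1265 values under 1e-06 were set to 0, and 2 empty columns were not used.

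Values were taken as log2(FPKM + 1), so a fold change understates the change of low genes. limma 3.58.1 (R 4.3.3) was fitted to all genes with at least 1 FPKM in at least 6 libraries of a comparison, with the line as a block and eBayes with trend and robust settings. p-values were adjusted by Benjamini-Hochberg over all genes tested, and adjusted p under 0.05 was the threshold. The interaction fit also let the siRNA and the TGF-beta effect vary by line, with 5 residual degrees of freedom. Libraries of 1 line deviated together (correlations 0.874 to 0.978), and the labels give the line, so lines pair the libraries. The fits were tested on simulated data. Alternatives covered the pseudocount, the filter, scaling, GC and length trends (GENCODE 29, matched by symbol), short RNA rows, the block, eBayes settings and each line left out. Starts come from RefSeq's promoter table.

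The members and the 13 gene lists were chosen with earlier results of these data known. Named were SFPQ; 11 members by role; per comparison up to 8 called members with the largest rises or falls shared by 6 of 6 lines, or the 5 smallest p-values where none was called; the 3 highest and 3 lowest members; the 6 with the widest SD over lines; and up to 3 of each other list. Other genes given with values were chosen after their values were seen. A few items are not reported here.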

Additional observations from a re-analysis of the deposited data

Results flagged for a closer look

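In 4 of 32 changes of named members and 1 of 25 control levels, 1 line stood apart from the other 5 by a gap above Dixon's 95% critical value for 6 samples. Chance flags about 1 in 20 groups that were not picked by their values. Members named for a call, a small p-value or a wide SD over lines were picked from these same values. That rate does not hold for them, and the flags are descriptions. After knockdown with TGF-beta, SK-HEP1 stood apart for RPL17, at -1.17 on the log2 scale, and for RPL41, at -1.04. In the same comparison Huh7 stood apart for RPS20, at -0.11, the smallest fall of the 6 lines. For TGF-beta in siSFPQ cells, HLE stood apart for RPL10A, at -0.37. The siCTL level of RPS26 in HepG2, 102 FPKM, was far below the other lines.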

How the results depend on the processing

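Of 17 alternatives, the count of members called after knockdown without TGF-beta (1) became 8 with libraries rescaled to equal sums, 3 (2 higher) with GC and length trends removed and 2 (1 higher) with the length trend removed, and ran from 1 to 4 with a line left out. With TGF-beta the count (11) became 4 under median ratio scaling, 5 and 6 (2 of the 6 higher) with those trends removed, and 7 without Huh7 and HepG2. For TGF-beta in siSFPQ cells the count (13) became 6 under median ratio scaling, 7 and 5 with those trends removed, 6 with short RNA rows kept, 0 with no filter on low values, 0 with plain eBayes, 0 without Huh7 and HepG2, and 0 to 6 with a line left out. With the members' own median set equal, an alternative chosen after seeing the data, the counts were 9 (3 higher), 12 (4 higher) and 3 (all higher). Without the replicate block, which ignores the pairing by line, 0 members and 0 genes passed in every comparison. For TGF-beta in siCTL cells and for the interaction the count was 0 under every alternative run. RPS6 passed after knockdown under every alternative with the block. Of 77 named gene changes none reversed. All genes called ranged from 987 to 2568 without and from 1684 to 3649 with TGF-beta under the alternatives with the block; for TGF-beta they ranged from 15 to 872 in siSFPQ and from 0 to 25 in siCTL cells, and for the interaction from 4 to 59. Removing GC and length trends moved the median of all genes after knockdown with TGF-beta from -0.09 to 0.03. RPL21 alone among members was under 1 FPKM in any library, so depth limits it most.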
